A study of Mus musculus with 12 samples.

Results

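The genes of glycolysis, glycogen turnover and the hypoxia response were followed across 4 genotypes of the mouse embryonic cardiac ventricle. The list holds 38 genes, from glucose transporters and hexokinases through the glycolytic and lactate steps to glycogen enzymes, regulators of hypoxia-inducible factor (HIF) and HIF-responsive genes. Of these, 35 had at least 1 probe set assigned to them alone on the array, and for each the probe set brightest on average (mean log2 signal over the 12 arrays) was used. All 35 were among the 9667 genes tested, out of 18193 genes with a probe set of their own. Gpi1, Gapdh and Eno1, which encode glucose-6-phosphate isomerase, glyceraldehyde-3-phosphate dehydrogenase and enolase, had no such probe set and were not analysed here.

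RNA was taken at embryonic day 16.5 from 3 independent ventricles per genotype and measured on 12 single-colour Affymetrix arrays. The groups were double-null embryos, which lack both Hdac2 and Hopx, Hdac2-null embryos, Hopx-null embryos and wild-type embryos. The Hdac2 product is one of the class I histone deacetylases, and the Hopx product is a small cardiac homeodomain protein that acts without binding DNA. The labels give no allele, strain, litter or sex, they do not say whether a deletion was confined to the heart, and name no further deletion or treatment in any group. The question put by this design is how the absence of either gene, or of both, affects transcripts of the embryonic ventricle.

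Glycolysis breaks glucose down to pyruvate, which is either reduced to lactate and exported or oxidised in mitochondria, and glycogen is the stored form of glucose. The fetal heart works at low oxygen tension and draws much of its energy from glycolysis and glycogen, and it shifts toward oxidative metabolism after birth. Many genes of these pathways are direct targets of HIF, a transcription factor whose alpha subunits are marked for destruction by oxygen-dependent prolyl hydroxylases of the Egln family and are stabilised when oxygen is scarce.

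Signals were bright for most of the list. On the probe sets used, no member was at or below the signal floor of 82.5 units on any array. Their signals ran over the arrays between 198 units (P4ha1) and 30428 units (Ldhb). Some members also had a probe set at or below the floor on all 12 arrays, among them Adm (37.1 to 71.4 units). For 26 of the 35 genes the brightest array was less than 1.5 times the dimmest, and for 2 genes, Slc16a3 and P4ha1, it was at least 2 times the dimmest. The coefficient of variation within groups had a median of 7.81% over the members and ran between 1.25% for Aldoa and 33.1% for P4ha1. Hdac2 signal was at most 4.32 units on the 6 arrays of embryos lacking it. Hopx signal lay between 1656 and 2066 units on the 6 arrays of embryos lacking it, against 8577 to 12240 units on the other 6. Within those, wild type 1, 2 and 3 had 8653, 8577 and 12220 units, and the Hdac2-null arrays 11680 to 12240 units. All 12 cardiomyocyte markers examined were above the floor on every array. In bulk tissue, fewer cells of a type and less RNA per cell cannot be told apart, here and in all that follows. Xist was at 4988 units or more on 5 arrays (wild type 1, wild type 2 and the first replicate of every null group) and at most 22.2 units on the rest, so that sex was not balanced between the groups. Wild type 1 also had the highest Gapdh log2 3′ to 5′ signal ratio, 1.33, where the other arrays lay between 0.842 and 1.08.

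In double-null against wild-type ventricles, most of the list was lower by small amounts. The fitted log2 fold change was negative for 27 of 35 genes and positive for 8, with a median of -0.10, where 54.4% of all genes tested were lower and their median was -0.01. The largest differences were in HIF-responsive genes: P4ha1 at -0.81, Ankrd37 at -0.48 and Ddit4 at -0.35 on the log2 scale, together with the lactate exporter Slc16a3 at -0.58. By limma with Benjamini-Hochberg adjustment, 0 of the 35 genes passed an adjusted p of 0.05, where 0.031% of all genes tested did, and the smallest adjusted p among them was 0.594, for Ddit4. At an unadjusted p under 0.05, 9 genes were lower and 0 higher, where 4.3% of all genes tested were lower and 3.01% higher. Every double-null array was below every wild-type array for 12 genes and above every wild-type array for 1, Ldhb, where the shares over all genes tested were 8.61% and 6.31%. By limma without wild type 3, 2 members were called, Ddit4 (log2 -0.47, adjusted p = 0.00964) and Pgam2 (log2 -0.33, adjusted p = 0.0369). The range of calls over all genes tested with arrays left out is given in the closing section. It does not single out the fit without wild type 3, so these 2 calls have no share over all genes beside them. Wild type 3 was the wild-type array with low Xist signal (9.5 units). That fit therefore set only Xist-high wild-type arrays against double-null arrays of both kinds, and the part of sex in these calls was not tested. The count of lower members was 27 without wild type 1, 25 without wild type 2 and 26 without wild type 3, and 28 with sex as a term. With 1 wild-type array left out, groups separate more easily for any gene. The number of members lower on every double-null array was then 12 without wild type 1, 13 without wild type 2 and 18 without wild type 3, where the shares over all genes tested were 16%, 14% and 17.6%. The members higher on every double-null array were 3, 1 and 3, beside 13.2%, 9.3% and 13.9% of all genes tested.

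In Hdac2-null against wild-type ventricles, 23 genes were lower and 12 higher, with a median log2 fold change of -0.05 beside -0.01 and 55.1% lower over all genes tested. By limma 0 members were called, where 0.0207% of all genes tested were, and the smallest adjusted p was 0.893, for Ddit4 and Slc16a3. At an unadjusted p under 0.05, 4 genes were lower (Slc2a4, Eno3, Slc16a3 and Ddit4) and 0 higher, where the shares over all genes tested were 2.99% and 2.12%. The arrays did not overlap and were lower for 3 genes, Tpi1, Hif1a and Egln1, and higher for 0, beside 5.69% and 3.89% of all genes tested. Without wild type 3 that count was 13 lower and 2 higher, where the shares over all genes tested were 13.8% and 10.7%. Without wild type 1 it was 4 and 1 (10.4% and 8.2% of all genes tested), and without wild type 2 it was 3 and 1 (12.6% and 7.82%). Without wild type 1 the median was -0.01.

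In Hopx-null against wild-type ventricles the list was evenly split, with 16 genes lower and 19 higher and a median of 0.0063 (all genes tested, 51.1% lower and a median of -0.0025). By limma 0 members were called, beside 0.0103% of all genes tested, and the smallest adjusted p was 1. At an unadjusted p under 0.05, Egln1 was lower and Gbe1 higher, 1 gene in each direction, where 1.43% of all genes tested were lower and 1.22% higher. The arrays did not overlap for 3 genes that were lower, Hif1a, Egln1 and Ndrg1, and for 1 that was higher, Gbe1, where the shares over all genes tested were 2.53% and 1.89%. Without wild type 3 the median was -0.05, with 26 genes lower, and without Hopx-null 2 it was -0.04, so that the direction of this median turned on single arrays.

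Double-null ventricles were also set against each single null. Against Hdac2-null ventricles, 25 genes were lower and 10 higher with a median of -0.07, where 51.3% of all genes tested were lower and their median was -0.0045. By limma 0 members were called, beside 0.0103% of all genes tested, and the smallest adjusted p was 0.481, for Ankrd37. At an unadjusted p under 0.05, 0 members were lower and 0 higher, where 4.89% of all genes tested were lower and 6.45% higher. The arrays did not overlap for 8 genes that were lower and 1, Gbe1, that was higher, beside 12.7% and 12.9% of all genes tested. Against Hopx-null ventricles, 27 genes were lower and 8 higher with a median of -0.08, where 52.3% of all genes tested were lower and their median was -0.0070. By limma 0 members were called, beside 0.0207% of all genes tested. The smallest adjusted p there was 0.538. At an unadjusted p under 0.05, 7 genes were lower (Pfkm, Pgam2, Eno3, Pkm, Gbe1, Ankrd37 and Ddit4) and 0 higher, where the shares over all genes tested were 5.0% and 3.13%. With every array centred on its median, 23 were lower and 12 higher. For 11 genes every double-null array was below every Hopx-null array and for 0 above, beside 8.14% and 6.19% of all genes tested. Without wild type 3, which changes only the shared spread in this comparison, Ddit4 was called (log2 -0.37, adjusted p = 0.0396). The share of all genes called in that fit is not given here. With limma's array weights, which gave double-null 2 a weight of 7.98 and wild type 1 a weight of 0.31, Ankrd37 (log2 -0.44, adjusted p = 0.0303) and P4ha1 (log2 -0.70, adjusted p = 0.0379) were called against Hdac2-null ventricles, where 951 genes in all were called in place of 1.

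The loss of Hdac2 was measured in 2 comparisons that share no arrays, double-null against Hopx-null and Hdac2-null against wild type. Of the 35 genes, 20 were lower in both, which is 74.1% of the 27 lower in the first and 87.0% of the 23 lower in the second, and 5 were higher in both. Over all genes tested 3009 were lower in both, 59.6% of those lower in the first and 56.5% of those lower in the second, and 2228 were higher in both. The members were lower more often in each comparison taken alone, which raises these shares. Of the 35, 77.1% were lower in the first and 65.7% in the second, beside 52.3% and 55.1% of all genes tested. For the loss of Hopx, measured by double-null against Hdac2-null and Hopx-null against wild type, 14 members were lower in both, which is 56% of the 25 lower in the first and 87.5% of the 16 lower in the second, and 8 were higher in both. Over all genes tested 2778 were lower in both, 56% of those lower in the first and 56.2% of those lower in the second, and 2466 were higher in both. Taken alone, 71.4% of the 35 were lower in the first and 45.7% in the second, beside 51.3% and 51.1% of all genes tested. The difference between the effect of losing Hdac2 in the absence and in the presence of Hopx (the interaction) had a median of -0.03 over the members and of 0.0048 over all genes tested. By limma 0 members were called for it, beside 0.0% of all genes tested. At an unadjusted p under 0.05, 1 member had a positive interaction and 0 a negative one, where 1.93% and 2.24% of all genes tested did. That member was Hif1a (log2 0.22, SE 0.09, adjusted p = 0.942 by limma).

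The summed signal of 13 endothelial markers, all above the floor on every array, was 18149.9 to 18759.9 units on the double-null arrays, 19959.7 to 20593 on the Hdac2-null, 19099 to 20213 on the Hopx-null and 18981 to 21107 on the wild-type arrays, so that the double-null arrays were below all the others. Of 10 leukocyte markers, 4 were above the floor (Ptprc, Cd68, Aif1, Cd14, Adgre1 and Itgam were at or below it on all arrays), and their list summed to 4678 to 5419 units on the double-null, 4772 to 5189 on the Hdac2-null, 5125 to 5458 on the Hopx-null and 5607 to 6239 units on the wild-type arrays. All 9 null arrays were below the wild-type arrays in that sum, as they were for Egln1. The sum of 12 cardiomyocyte markers overlapped between the groups, at 331248 to 337760.0 units on the double-null and 335820.0 to 341578 on the wild-type arrays. Of 14 skeletal muscle markers, 4 were above the floor on any array (Tnni2, Myl1, Acta1 and Ckm), and the identity genes Myod1, Myog, Myf5 and Myf6 were at or below it on all arrays. That list summed to 7678 to 8909 units on the double-null, 8646 to 11133 on the Hdac2-null, 8833 to 10025 on the Hopx-null and 8601 to 11111 units on the wild-type arrays. Tnni2, the fast skeletal troponin I, measured 364, 551 and 549.9 units on the double-null arrays, 439, 665 and 926 on the Hdac2-null arrays, 134, 39.1 and 23.3 on the Hopx-null arrays and 27.7, 45.0 and 84.6 on the wild-type arrays. By limma Tnni2 was higher than in wild-type ventricles in double-null (log2 2.53 with signals held at the floor, adjusted p = 0.00598) and in Hdac2-null ones (log2 2.96, adjusted p = 0.00189). The other 3 were lower in double-null and Hdac2-null ventricles without passing the adjusted test, among them Myl1 (log2 -1.04 in double-null minus wild type, adjusted p = 0.657).

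Further marker sums on the Hdac2-null arrays did not overlap those on the wild-type arrays, but did overlap those on the Hopx-null arrays. All 9 fibroblast markers were above the floor on every array, and their sum was 71599 to 76257 units on the double-null, 69883 to 72101 on the Hdac2-null, 71791 to 77592 on the Hopx-null and 73214 to 76422 units on the wild-type arrays. Every Hdac2-null array was below every wild-type array in that sum, and 8 of the 9 genes were lower in Hdac2-null than in wild-type ventricles, with 0 called by limma. Of 11 erythroid markers, 3 were above the floor on any array and none on all (Hba-a1, Hba-x, Hbb-bh1, Epb42, Gata1 and Klf1 were at or below it on all arrays). The erythroid sum was 215 to 264 units on the double-null, 575 to 1631 on the Hdac2-null, 215 to 771 on the Hopx-null and 253 to 493 units on the wild-type arrays, highest on Hdac2-null 1. Of 9 liver markers, 3 were above the floor on any array, with sums of 63.2 to 93.8 units on the double-null, 87.1 to 626 on the Hdac2-null, 62.1 to 152 on the Hopx-null and 58.1 to 76.0 units on the wild-type arrays. Every wild-type liver sum was thus below the floor of 82.5 units used for a single gene. The part of these cell contents and of RNA quality in the lower values of the list was not tested.

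**Figure D1:**
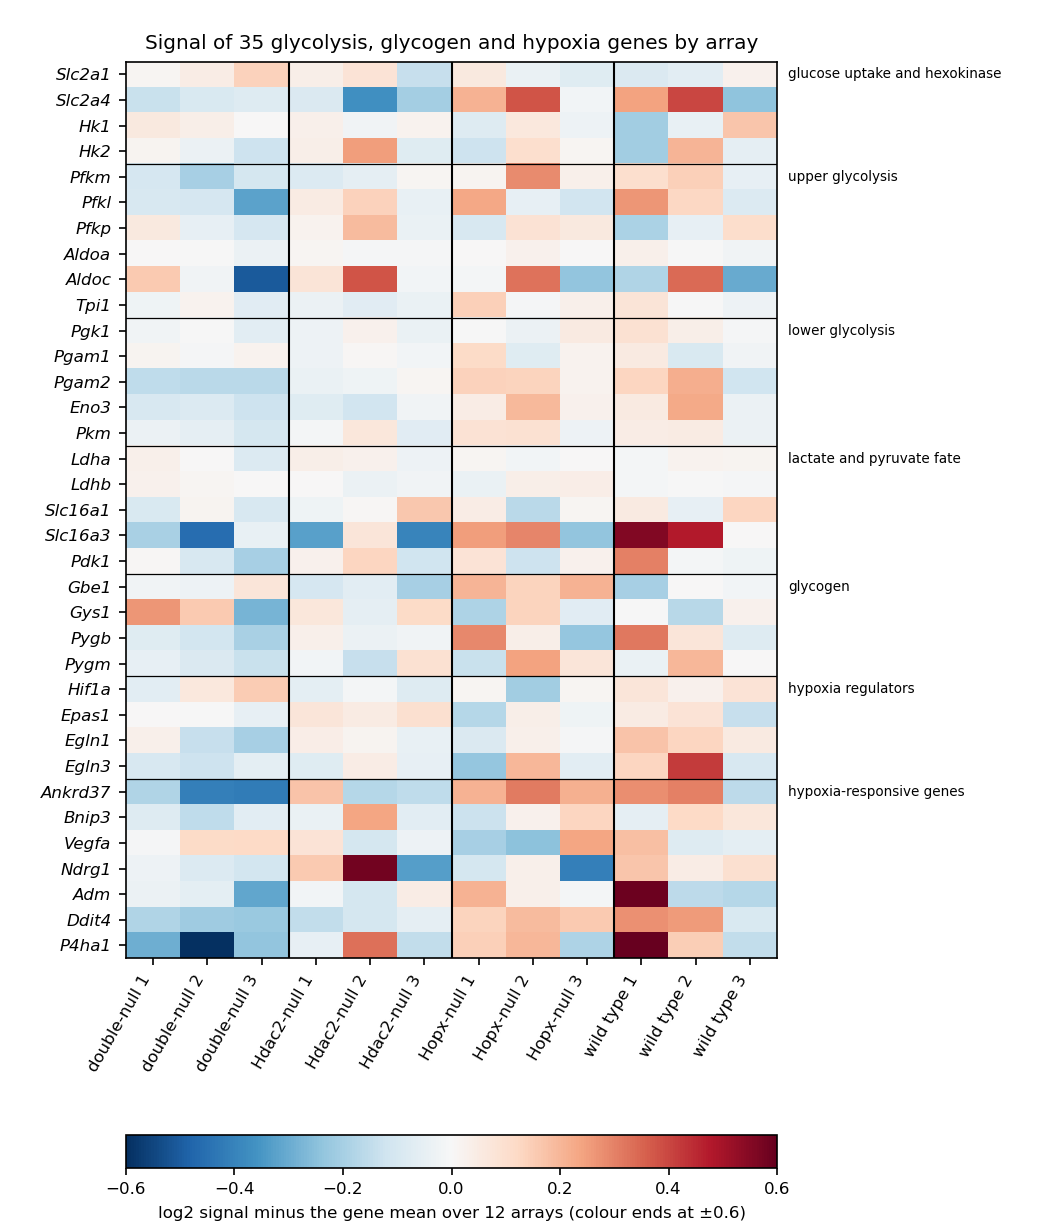
Log2 signal of each of the 35 genes on each of the 12 arrays, minus the gene's mean over the arrays, with genes in rows by role and arrays in columns by genotype (double-null, Hdac2-null, Hopx-null, wild type; colour ends at 0.6 either way). Double-null 3 held the lowest signal of 14 genes and wild type 1 the highest of 10.

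Single arrays contributed unequally. The median deviation of the 35 genes from their own means over the arrays was -0.03, -0.06 and -0.10 on the double-null arrays, -0.01, 0.01 and -0.04 on the Hdac2-null arrays, 0.02, 0.04 and 0.01 on the Hopx-null arrays and 0.07, 0.05 and -0.02 on the wild-type arrays (log2). Every double-null array was below every wild-type array, with wild type 3 close to double-null 1. The same medians over all genes tested stayed between -0.02 and 0.03. For the 7 hypoxia-responsive genes the medians were -0.08, -0.15 and -0.22 on the double-null arrays, -0.01, -0.10 and -0.06 on the Hdac2-null arrays, 0.13, 0.03 and 0.13 on the Hopx-null arrays and 0.28, 0.12 and -0.09 on the wild-type arrays. Wild type 3 lay among the null arrays in this group of genes.

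**Figure D2:**
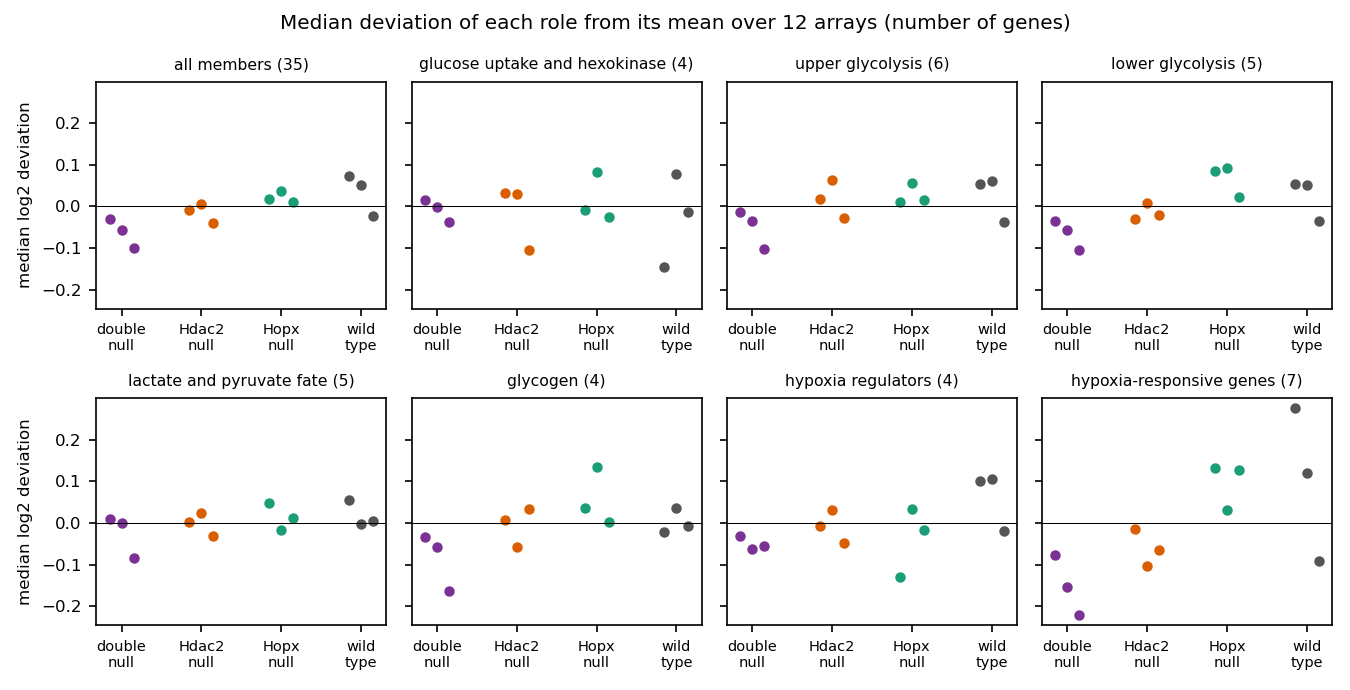
Median log2 deviation of the genes of each role from their own mean over 12 arrays, with 1 point per array and the groups double-null, Hdac2-null, Hopx-null and wild type along the x axis. The hypoxia-responsive genes spread most, between -0.22 on double-null 3 and 0.28 on wild type 1.

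Glucose enters the cardiomyocyte through Slc2a1 (GLUT1), the main fetal and basal transporter, and Slc2a4 (GLUT4), the insulin-responsive one, and is trapped by the hexokinases Hk1 and Hk2. Slc2a1 measured 17540.1, 17903 and 19138 units on the double-null arrays, 17776, 18392 and 15780.2 on the Hdac2-null arrays, 18096, 16923 and 16521 on the Hopx-null arrays and 16376, 16649.5 and 17692 on the wild-type arrays. The groups overlapped, with the brightest signal on double-null 3 and the dimmest on Hdac2-null 3. Double-null minus wild type was 0.11 on the log2 scale with a 95% interval of -0.03 to 0.24 (limma adjusted p = 0.695). The other Slc2a1 probe sets, also bright, gave 0.006 and 0.005. Slc2a4 gave 1630.5, 1676 and 1693 units on the double-null arrays, 1683, 1384 and 1552 on the Hdac2-null arrays, 2063, 2319 and 1766 on the Hopx-null arrays and 2113, 2357 and 1512 on the wild-type arrays. All double-null and Hdac2-null arrays were dimmer than all Hopx-null arrays, while the wild-type arrays held both the brightest value and, on wild type 3, one of the dimmest. Slc2a4 was 1.28-fold lower in Hdac2-null than in wild-type ventricles (log2 -0.35, SE 0.15, adjusted p = 0.925 by limma) and 1.18-fold lower in double-null ones (log2 -0.23, SE 0.15, adjusted p = 0.743). Hk1 and Hk2, which phosphorylate glucose, had double-null minus wild-type values of 0.06 and -0.03, and the interval for Hk1 was -0.11 to 0.23.

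In the upper part of glycolysis, phosphofructokinase makes the committed step with its muscle (Pfkm), liver (Pfkl) and platelet (Pfkp) subunits. Aldolases (Aldoa, Aldoc) split the hexose into triose phosphates, which triose-phosphate isomerase (Tpi1) interconverts. Pfkm measured 4779, 4467 and 4756 units on the double-null arrays, 4842, 4943 and 5171 on the Hdac2-null arrays, 5189.8, 6227 and 5235 on the Hopx-null arrays and 5488, 5658 and 4959.7 on the wild-type arrays. Each double-null value was below each value of the 3 other groups. Pfkm was 1.15-fold lower in double-null than in wild-type ventricles (log2 -0.20, SE 0.08, adjusted p = 0.663 by limma) and 1.19-fold lower than in Hopx-null ventricles (log2 -0.25, SE 0.08, adjusted p = 0.538). Pfkl had 1854, 1848 and 1586 units on the double-null arrays, 2050.5, 2178 and 1921 on the Hdac2-null arrays, 2325, 1917 and 1828 on the Hopx-null arrays and 2381, 2156 and 1871 on the wild-type arrays. The double-null arrays were again all below the wild-type and the Hdac2-null arrays, and overlapped the Hopx-null arrays. Pfkl was 1.21-fold lower in double-null than in wild-type ventricles (log2 -0.27, SE 0.12, adjusted p = 0.671), and a second Pfkl probe set gave -0.43 (SE 0.20, adjusted p = 0.658). Pfkp, the third subunit, was at 0.02 with an interval of -0.17 to 0.20.

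The other upper-glycolysis genes differed little between double-null and wild-type ventricles on the probe sets used. Aldoa, the muscle aldolase, lay between 28336 and 29572 units over all 12 arrays, and its double-null minus wild-type difference was -0.01 with an interval of -0.06 to 0.04. Among its other 4 probe sets, 2 gave -0.06 and -0.08 (adjusted p = 0.644 for each). Aldoc, the brain-type aldolase, spread widely within every group, between 675 and 1242 units over the arrays, and stood at -0.08 (SE 0.22). Tpi1 was lower on all Hdac2-null than on all wild-type arrays by a small margin, with a log2 difference of -0.06 (SE 0.04, adjusted p = 0.925), and in double-null against wild-type ventricles it was at -0.04 with an interval of -0.13 to 0.06. On the other Tpi1 probe sets the Hdac2-null and wild-type arrays overlapped. There double-null minus wild type was -0.06 and -0.14 (limma adjusted p = 0.718 and 0.656).

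The lower part of glycolysis yields ATP at phosphoglycerate kinase (Pgk1) and pyruvate kinase (Pkm), with phosphoglycerate mutase and enolase between them. The muscle isoforms of both middle steps, Pgam2 and Eno3, had lower signals on every double-null array than on any wild-type array. Pgam2 measured 11173, 11098 and 11084 units on the double-null arrays, 12062, 12181 and 12512 on the Hdac2-null arrays, 13638, 13621 and 12605 on the Hopx-null arrays and 13583, 14446 and 11419 on the wild-type arrays. The 3 double-null arrays were almost level and lay below all the other arrays. Against wild type, Pgam2 in double-null ventricles was 1.18-fold lower (log2 -0.24, SE 0.07, adjusted p = 0.612 by limma) and against Hopx-null ventricles it was 1.19-fold lower (log2 -0.26, SE 0.07, adjusted p = 0.538). Eno3 gave 17406, 17551 and 17063 units on the double-null arrays, 17677, 17181 and 18341 on the Hdac2-null arrays, 19202, 21289 and 18943 on the Hopx-null arrays and 19312, 21808 and 18149 on the wild-type arrays. Double-null arrays were below all wild-type and Hopx-null arrays and overlapped the Hdac2-null arrays, whose values reached above the dimmest wild-type one. Eno3 was 1.14-fold lower in double-null (log2 -0.18, SE 0.06, adjusted p = 0.657) and 1.11-fold lower in Hdac2-null than in wild-type ventricles (log2 -0.15, SE 0.06, adjusted p = 0.925), and in Hopx-null ventricles the difference was 0.01 with an interval of -0.13 to 0.15.

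Pgam1, the widely expressed mutase, was at 0.03 in double-null minus wild type with an interval of -0.08 to 0.14. Pgk1 was at -0.07 (interval -0.14 to 0.01), but its other probe sets gave 0.08 and 0.15 (adjusted p = 0.718 and 0.668), so the direction for this gene depended on the probe set. Pkm measured 14395, 14181 and 13721 units on the double-null arrays, all below the Hopx-null values of 15629.9, 15719 and 14427 units (log2 -0.11, SE 0.05, adjusted p = 0.553 by limma). In double-null minus wild type Pkm stood at -0.08 (interval -0.19 to 0.02).

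Pyruvate is turned into lactate by lactate dehydrogenase (Ldha and the heart subunit Ldhb), lactate crosses the membrane through the monocarboxylate transporters Slc16a1 (MCT1) and Slc16a3 (MCT4), and Pdk1 holds pyruvate back from mitochondrial oxidation by phosphorylating pyruvate dehydrogenase. Slc16a3 measured 535, 446 and 593 units on the double-null arrays, 488, 644 and 466 on the Hdac2-null arrays, 729, 750.3 and 519.8 on the Hopx-null arrays and 898, 849.6 and 614 on the wild-type arrays. Every double-null array was below every wild-type array, whereas Hdac2-null 2 exceeded the dimmest wild-type array and Hopx-null 3 was below all of them. Slc16a3 was 1.49-fold lower in double-null than in wild-type ventricles (log2 -0.58, SE 0.20, adjusted p = 0.657 by limma), 1.47-fold lower in Hdac2-null (log2 -0.56, SE 0.20, adjusted p = 0.893) and 1.18-fold lower in Hopx-null ventricles (log2 -0.24, SE 0.20, adjusted p = 1). Slc16a3 has 1 probe set on the array, and the interval for double-null minus wild type was wide, -1.02 to -0.13.

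Pdk1 read 8749, 8134 and 7574 units on the double-null arrays, 8857, 9507 and 7994 on the Hdac2-null arrays, 9205, 7982 and 8842 on the Hopx-null arrays and 10706, 8634 and 8550.2 on the wild-type arrays. Wild type 1 was the brightest of all, and the groups overlapped. Pdk1 stood at -0.18 in double-null minus wild type (SE 0.10, adjusted p = 0.677 by limma), and at -0.08 without wild type 1. Its other 3 probe sets gave 0.00, -0.20 and -0.24. Ldha and Ldhb were among the steadiest genes of the list: the double-null minus wild-type difference was -0.03 for Ldha (interval -0.10 to 0.04) and 0.02 for Ldhb (interval -0.04 to 0.08), although the Ldhb arrays did not overlap. The other 3 Ldhb probe sets were at -0.03, -0.01 and -0.06. Slc16a1 was at -0.10 with an interval of -0.25 to 0.05.

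**Figure D3:**
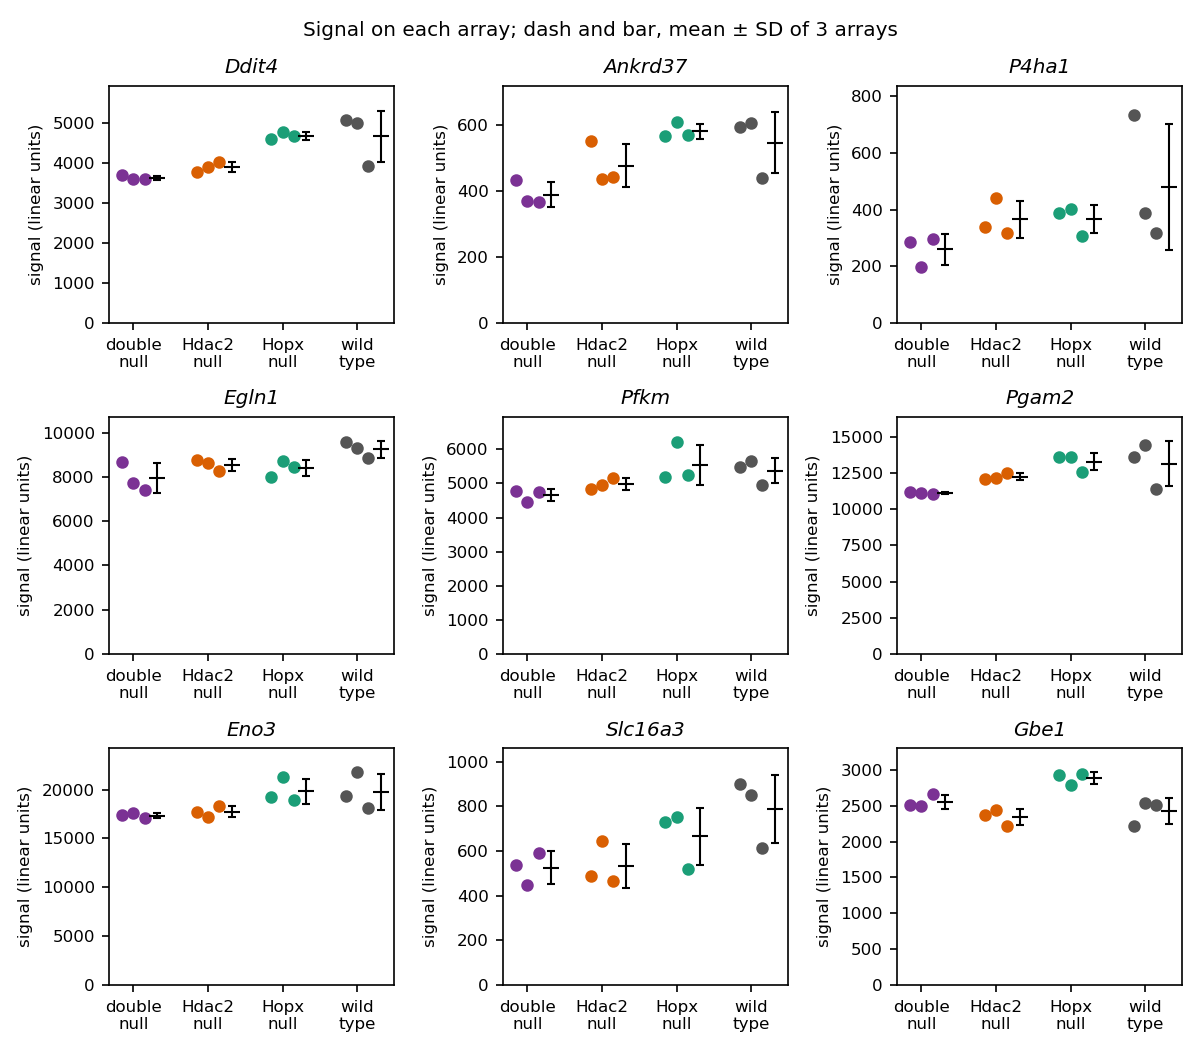
Deposited signal (linear units) of 9 genes on each array, by group in the order double-null, Hdac2-null, Hopx-null and wild type along the x axis; dash and bar are the mean and SD of 3 arrays. Ddit4, Ankrd37, Pfkm, Pgam2, Eno3, Slc16a3, Egln1 and P4ha1 were lower on every double-null array than on any wild-type array, and Gbe1 was higher on every Hopx-null array than on any wild-type array.

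Glycogen is built by glycogen synthase (Gys1) and the branching enzyme (Gbe1) and broken down by the phosphorylases Pygb (brain form) and Pygm (muscle form). Gbe1 measured 2505, 2489.9 and 2667 units on the double-null arrays, 2371, 2433 and 2213 on the Hdac2-null arrays, 2927, 2789 and 2934 on the Hopx-null arrays and 2210.2, 2543 and 2514 on the wild-type arrays. The Hopx-null arrays were above all the others. Gbe1 was 1.19-fold higher in Hopx-null than in wild-type ventricles (log2 0.25, SE 0.07, adjusted p = 1 by limma), and in double-null minus wild type it was at 0.08 with an interval of -0.08 to 0.23. Double-null minus Hopx-null was -0.18 (SE 0.07, adjusted p = 0.547), and the interaction was -0.13 (SE 0.10, adjusted p = 0.942). Pygb had 7258, 7061 and 6673 units on the double-null arrays, 7784, 7443 and 7511 on the Hdac2-null arrays, 9319.8, 7805 and 6501 on the Hopx-null arrays and 9496, 8015 and 7235 on the wild-type arrays. Wild type 1 and Hopx-null 1 were the brightest, and the double-null arrays overlapped the wild-type arrays through wild type 3. Pygb was at -0.23 in double-null minus wild type (SE 0.12, adjusted p = 0.677). Pygm gave 6575, 6409 and 6193 units on the double-null arrays, 6725, 6186 and 7242 on the Hdac2-null arrays, 6194, 8040.0 and 7154 on the Hopx-null arrays and 6628, 7803 and 6805 on the wild-type arrays. The double-null arrays were below the wild-type arrays by a narrow margin and overlapped both single nulls, and Pygm stood at -0.14 (SE 0.10, adjusted p = 0.744). Gys1 was at 0.10 with an interval of -0.21 to 0.40.

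Among the regulators of the hypoxia response, Hif1a and Epas1 encode the oxygen-labile subunits, and Egln1 and Egln3 the prolyl hydroxylases that mark them, both of which are themselves HIF targets. Egln1 measured 8693, 7739 and 7410.2 units on the double-null arrays, 8754, 8615 and 8247 on the Hdac2-null arrays, 8014, 8702 and 8460.3 on the Hopx-null arrays and 9577, 9301 and 8832 on the wild-type arrays. All 9 null arrays were below all 3 wild-type arrays. Egln1 was 1.16-fold lower in double-null (log2 -0.22, SE 0.06, adjusted p = 0.612 by limma), 1.08-fold lower in Hdac2-null (log2 -0.11, SE 0.06, adjusted p = 0.925) and 1.1-fold lower in Hopx-null than in wild-type ventricles (log2 -0.14, SE 0.06, adjusted p = 1). These comparisons share the wild-type arrays. A second, dimmer Egln1 probe set gave -0.48 in double-null minus wild type (SE 0.14, adjusted p = 0.556), -0.17 in Hdac2-null and 0.00 in Hopx-null minus wild type. Egln3 had 3694, 3623 and 3793 units on the double-null arrays, 3756, 4073 and 3819 on the Hdac2-null arrays, 3366, 4533 and 3787 on the Hopx-null arrays and 4325, 5288 and 3703 on the wild-type arrays. Wild type 2 and 1 were among the brightest and wild type 3 lay within the null arrays. Egln3 was at -0.25 in double-null, -0.18 in Hdac2-null and -0.18 in Hopx-null minus wild type (limma adjusted p = 0.674, 0.925 and 1).

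On the probe sets used, the transcripts of the HIF subunits themselves differed less between double-null and wild-type ventricles. Hif1a measured 13971, 15229.7 and 16243 units on the double-null arrays, 14020.2, 14459 and 13854 on the Hdac2-null arrays, 14705, 12611 and 14738 on the Hopx-null arrays and 15352, 14868 and 15430.1 on the wild-type arrays. Both single nulls were below the wild-type arrays and the double-null arrays straddled them, with a double-null minus wild-type difference of -0.01 (interval -0.15 to 0.13). The probe sets of Hif1a disagreed. A dimmer one had 835 ± 78.8 units in double-null and 1397 ± 80.2 units in wild-type ventricles (SD, n = 3 each), a log2 difference of -0.75 (SE 0.22, limma adjusted p = 0.556), and another gave 0.03. The sources used here do not place these probe sets on the transcript. Epas1 stood at -0.01 in double-null minus wild type with an interval of -0.16 to 0.13.

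The hypoxia-responsive genes held the largest differences, and 4 genes of the 2 hypoxia groups had an unadjusted p under 0.05 in double-null against wild-type ventricles: Ddit4, Ankrd37, P4ha1 and Egln1. Their promoter windows are shown because HIF binds the core hypoxia response element, and its letters can be looked for directly. The windows run over 300 bases, 250 before and 50 after the annotated transcript start, in RefSeq's annotation of GRCm38.p6, and are written 5′ to 3′ on the gene's strand. Capitals mark ACGTG or GCGTG on either strand (read in reverse as CACGT or CACGC); none of the 4 windows holds the palindrome CACGTG, in which ACGTG on the 2 strands overlaps. Ddit4 lies at chr10:59951721-59952020, minus strand, Ankrd37 at chr8:45999801-46000100, minus strand, P4ha1 at chr10:59323046-59323345, plus strand and Egln1 at chr8:124949205-124949504, minus strand.
Ddit4: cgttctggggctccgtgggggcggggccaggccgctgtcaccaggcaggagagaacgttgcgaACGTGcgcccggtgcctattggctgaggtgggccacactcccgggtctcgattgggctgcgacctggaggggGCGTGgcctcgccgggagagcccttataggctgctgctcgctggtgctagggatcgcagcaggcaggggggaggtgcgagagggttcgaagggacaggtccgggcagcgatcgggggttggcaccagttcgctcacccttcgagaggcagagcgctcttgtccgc
Ankrd37: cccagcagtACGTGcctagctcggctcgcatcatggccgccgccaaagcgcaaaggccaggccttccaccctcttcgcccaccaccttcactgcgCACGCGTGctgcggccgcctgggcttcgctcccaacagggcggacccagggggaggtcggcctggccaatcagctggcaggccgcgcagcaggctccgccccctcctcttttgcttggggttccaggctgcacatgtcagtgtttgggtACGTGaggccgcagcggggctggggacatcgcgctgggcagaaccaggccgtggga
P4ha1: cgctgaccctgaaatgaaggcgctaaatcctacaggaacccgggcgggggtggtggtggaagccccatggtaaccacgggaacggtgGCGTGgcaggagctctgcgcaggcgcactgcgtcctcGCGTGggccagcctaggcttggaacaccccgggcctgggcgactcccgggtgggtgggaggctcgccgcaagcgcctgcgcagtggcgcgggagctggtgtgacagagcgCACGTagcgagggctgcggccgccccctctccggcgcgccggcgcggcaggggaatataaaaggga
Egln1: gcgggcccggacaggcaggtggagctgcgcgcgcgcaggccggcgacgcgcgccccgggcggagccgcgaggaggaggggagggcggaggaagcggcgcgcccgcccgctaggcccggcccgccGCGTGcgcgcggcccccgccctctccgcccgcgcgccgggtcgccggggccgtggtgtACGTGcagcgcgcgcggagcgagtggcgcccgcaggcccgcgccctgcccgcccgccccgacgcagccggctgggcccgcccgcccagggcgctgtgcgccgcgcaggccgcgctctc
The windows hold 2, 4, 3 and 2 matches in the order printed. Over the first windows of 27025 annotated genes, tested here or not, 43.8% hold ACGTG or GCGTG, 19.7% ACGTG, 32.5% GCGTG and 7.24% CACGTG. The share among the genes tested was not taken. Windows were found for 32 of the 35 genes, with Slc2a4, Epas1 and Ndrg1 not matched. By first windows only, 24 of the 32 (75%) hold ACGTG or GCGTG. Among them are 8 of the 9 matched hypoxia regulators and hypoxia-responsive genes. The exception is Vegfa, whose first window holds 0 matches and whose second holds 2. Hk1, Aldoa and Pkm likewise hold matches only in later windows. A match describes the letters of the window only.

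Ddit4 encodes a stress-induced inhibitor of mTORC1 signalling. Ddit4 measured 3702, 3617 and 3602 units on the double-null arrays, 3790.3, 3905 and 4045 on the Hdac2-null arrays, 4599, 4789.5 and 4682 on the Hopx-null arrays and 5078, 5007 and 3938 on the wild-type arrays. Double-null arrays were the lowest and nearly level, Hdac2-null arrays came next, and both lay below all Hopx-null arrays, while wild type 3 was within the Hdac2-null range. Ddit4 was 1.28-fold lower in double-null than in wild-type ventricles (log2 -0.35, SE 0.08, adjusted p = 0.594 by limma) and 1.19-fold lower in Hdac2-null (log2 -0.25, SE 0.08, adjusted p = 0.893), and Hopx-null minus wild type was 0.01 with an interval of -0.17 to 0.20. Against Hopx-null ventricles, double-null was 1.29-fold lower (log2 -0.37, SE 0.08, adjusted p = 0.538). Ankrd37 encodes a small ankyrin-repeat protein induced in hypoxia. Ankrd37 gave 432, 369 and 367 units on the double-null arrays, 553, 436 and 442 on the Hdac2-null arrays, 567, 609 and 569 on the Hopx-null arrays and 595, 606 and 441 on the wild-type arrays. Each double-null array was below each of the other arrays, the nearest being Hdac2-null 2 and wild type 3. Ankrd37 was 1.39-fold lower in double-null than in wild-type ventricles (log2 -0.48, SE 0.15, adjusted p = 0.612) and 1.5-fold lower than in Hopx-null ventricles (log2 -0.58, SE 0.15, adjusted p = 0.538).

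P4ha1 encodes the catalytic subunit of the prolyl 4-hydroxylase that modifies collagen. P4ha1 measured 287, 198 and 298 units on the double-null arrays, 338, 440.3 and 317 on the Hdac2-null arrays, 388, 402 and 309 on the Hopx-null arrays and 733, 388 and 317 on the wild-type arrays. Wild type 1 was far above every other array, and without it the double-null minus wild-type difference was -0.45 in place of -0.81 (SE 0.28, adjusted p = 0.657 by limma). The double-null arrays remained below all the others. Adm, the vasodilator peptide adrenomedullin, had its brightest signal on the same array, 3578 units, and its difference was -0.22 with wild type 1 and 0.03 without it. Bnip3, a mitophagy receptor, was below the wild-type range on all double-null arrays, at 13703, 12984 and 13828 units against 13921, 15700.4 and 15128 units on the wild-type arrays (log2 -0.14, SE 0.09, adjusted p = 0.706). Ndrg1, a stress-responsive gene, was likewise below, at 5589.9, 5398 and 5290.0 against 6402, 5878 and 6108 units, but Hdac2-null arrays alone spanned 4534 to 8525 units, and the difference was -0.18 (SE 0.18). The 3 dimmer Ndrg1 probe sets above the floor gave -0.38, -0.53 and -0.47. Vegfa, the endothelial growth factor, was at 0.06 with an interval of -0.21 to 0.33.

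**Figure D4:**
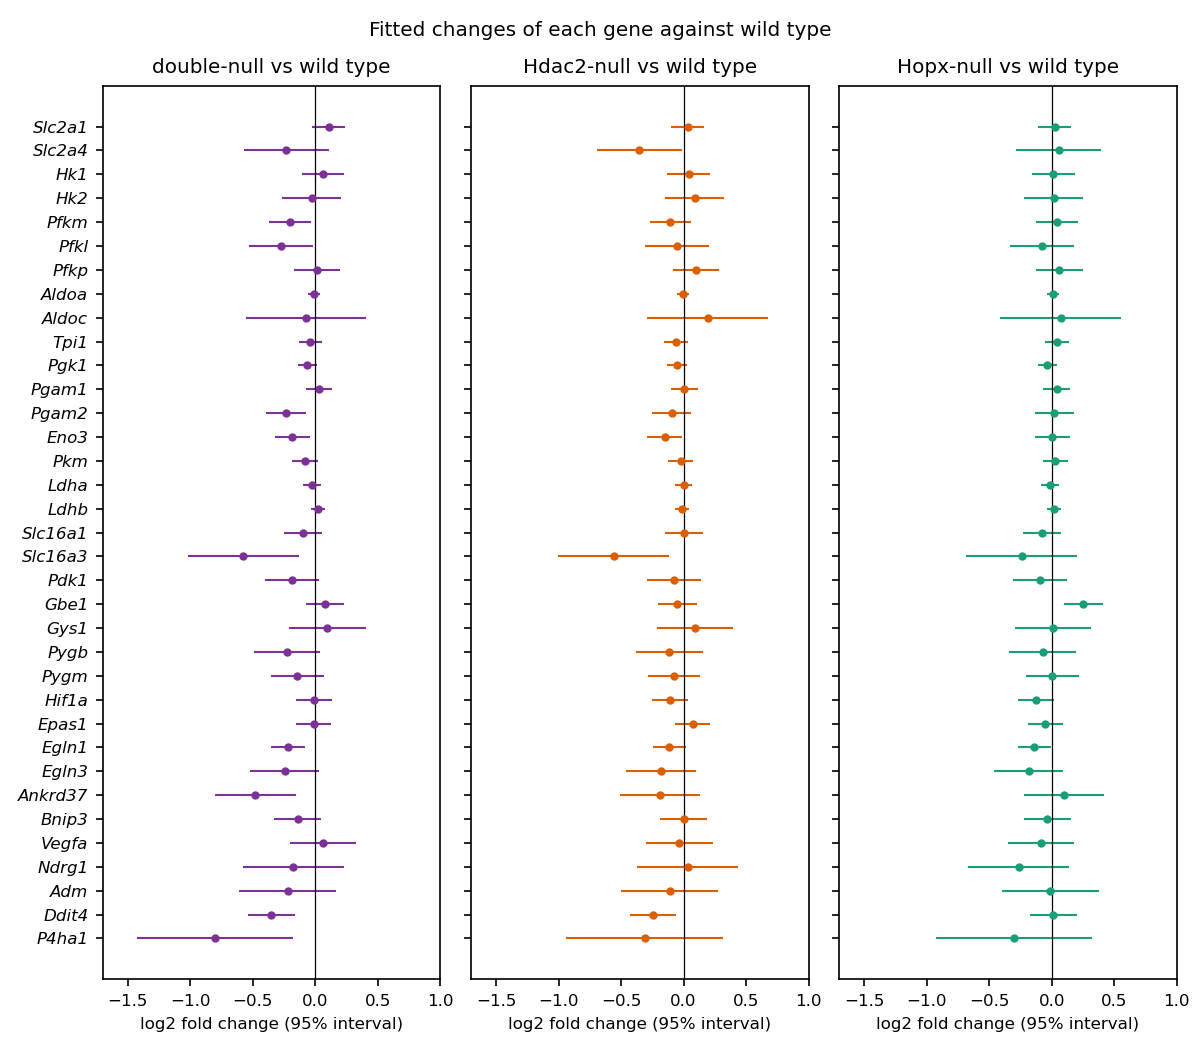
Fitted log2 fold change of each gene (point) with its 95% interval (line) against wild type, for double-null, Hdac2-null and Hopx-null ventricles, with genes by role down the page. In double-null against wild type 27 of 35 points lie below 0, and 13 of the 35 intervals lie within 0.25 of 0 on the log2 scale.

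Small differences were bounded for part of the list, on the 1 probe set used for each gene. Other probe sets of a gene counted here could differ in double-null minus wild type. For Hif1a a dimmer one gave -0.75 (SE 0.22) and another 0.03, and for Pgk1 the others gave 0.08 and 0.15. The 95% interval stayed within 0.25 of 0 on the log2 scale for 13 of 35 genes in double-null, 14 in Hdac2-null and 18 in Hopx-null minus wild type, and within 0.5 for 25, 30 and 31 genes. By role, in double-null against wild-type ventricles, the median log2 fold change was 0.02 for glucose uptake and hexokinase (2 of 4 genes lower), -0.06 for upper glycolysis (5 of 6), -0.08 for lower glycolysis (4 of 5) and -0.10 for lactate and pyruvate fate (4 of 5). It was -0.03 for glycogen (2 of 4), -0.12 for hypoxia regulators (4 of 4) and -0.22 for hypoxia-responsive genes (6 of 7). In each role 0 genes passed the adjusted test.

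Other genes of the same pathways were given as counts. Of 116 listed, 89 were tested, and by limma 0 passed the adjusted test in any comparison. In double-null against wild-type ventricles 64 were lower and 24 higher with a median of -0.06, where 54.4% of all genes tested were lower and their median was -0.01. Of the 89 genes, 6 were lower and 2 higher at an unadjusted p under 0.05, beside 4.3% and 3.01% of all genes tested. Phkg1, the catalytic subunit of phosphorylase kinase in muscle, had the smallest adjusted p of these genes in Hdac2-null ventricles. Phkg1 measured 186, 183 and 220.3 units on the double-null arrays, 130.0, 141 and 190.2 on the Hdac2-null arrays, 152, 240.5 and 203 on the Hopx-null arrays and 243, 368 and 271 on the wild-type arrays. All 9 null arrays were below all 3 wild-type arrays, with log2 differences of -0.56 (SE 0.21, adjusted p = 0.657) in double-null, -0.93 (SE 0.21, adjusted p = 0.721) in Hdac2-null and -0.57 (SE 0.21, adjusted p = 1) in Hopx-null minus wild type. In double-null minus wild type, the pyruvate dehydrogenase kinase Pdk2 was at -0.41 (SE 0.14, adjusted p = 0.644) and Bsg, the chaperone of the lactate transporters, at -0.25 (SE 0.08, adjusted p = 0.652). Among further hypoxia-responsive genes Narf was at -0.52 (SE 0.17, adjusted p = 0.641) and the nuclear receptor Rora at -0.69 (SE 0.27, adjusted p = 0.668), and among HIF regulators the hydroxylase Egln2 was at -0.21 (SE 0.09, adjusted p = 0.671) and the ubiquitin ligase subunit Vhl at -0.11 (SE 0.05, adjusted p = 0.671). Pgd of the pentose phosphate pathway was higher on every double-null, Hdac2-null and Hopx-null array than on any wild-type array, with 0.12 (SE 0.04, adjusted p = 0.657), 0.07 (SE 0.04, adjusted p = 0.925) and 0.13 (SE 0.04, adjusted p = 1) on the log2 scale. Tigar, a phosphatase that restrains glycolysis, was at -0.33 (SE 0.10, adjusted p = 0.893) and Pygl, the liver phosphorylase, at 0.30 (SE 0.11, adjusted p = 0.893) in Hdac2-null minus wild type.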

How the data were processed

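Array data of 12 embryonic ventricles were analysed from the table of processed values. The authors deposited linear-scale intensities of 45101 probe sets, and MAS5 is named, without a version, in the submitters' processing notes. The values did not have the shape of MAS5 output: 48.6% lay within 1 unit of 4.5, and upper quartiles ran only between 557.3 and 586.0. How they were scaled is therefore unknown, and no further normalisation was applied. Platform annotation gave 34945 probe sets a single gene, and symbols were brought up to date through gene identifiers. Signals under 82.5 units (0.1 times the average over arrays of the 2% trimmed mean) were set to that floor before log2 transformation. Genes below the 40th percentile of all probe sets were left out, as were 2766 genes at the floor on all arrays, a step decided after the values were seen. None of the 35 list members was affected.

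Differences were fitted with limma 3.58.1 (lmFit, eBayes with an intensity trend) in R 4.3.3, with 1 coefficient per genotype over 12 arrays and 8 residual degrees of freedom. Benjamini-Hochberg adjustment ran over 9667 genes separately in 6 comparisons, an adjusted p below 0.05 counted as a call, and every adjusted p in the text comes from this fit unless a change to it is named. Tables were handled in Python 3.11.15. The fit was tested on simulated data. The pass mark covered only the largest planted changes, which exceeded every difference in the list, so it does not speak to differences of that size. Values on every array are given for members with an unadjusted p under 0.05 in a comparison with wild type and for the 2 members of each role with the largest double-null difference; further pathway genes are named only where they had one of the 2 smallest p-values of their list in a comparison with wild type. Members, lists and rules were chosen with earlier results of these data known. Precision is limited by having 3 arrays per group, and the median SE of a member's log2 fold change was 0.08.

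The labels number replicates 1 to 3 in each group. Deviations of same-numbered arrays from their group means were correlated across genes at 0.42, 0.42 and 0.15 between Hopx-null and wild-type arrays and at 0.21, 0.17 and 0.12 between Hopx-null and Hdac2-null arrays. For the other pairs of groups the values ran from -0.25 to 0.33, with some below 0.1 in each. Double-null and Hdac2-null arrays came near that mark, at 0.25, 0.096 and 0.25. The main fit held no pairing in any comparison, and an alternative took the replicate number as a block over all groups. Alternatives were the floor, normalization, filter, variance trend, array weights, replicate number as a block, sex as a term, the groups in the fit and arrays left out. Promoter windows came from RefSeq's GRCm38.p6 annotation.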

Additional observations from a re-analysis of the deposited data

How the results depend on the processing

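Each comparison was fitted under 24 alternatives to the setting used, and the interaction under 23, since a fit with only the groups compared holds no interaction. The count of members called stayed at 0 under all of them except these: without wild type 3 it was 2 in double-null against wild type (0 to 2 over the arrays left out) and 1 against Hopx-null (0 to 1), and with array weights it was 2 in double-null against Hdac2-null. No member's call was lost or turned, because none was called. The number of all genes called in Hdac2-null against wild type was 1 with no floor in place of 2, and 2 to 4 with arrays left out. In double-null against wild type it was 2 to 8 with arrays left out, in place of 3. Against Hdac2-null it was 2 with no floor and 951 with array weights, in place of 1. Against Hopx-null, in place of 2, it was 1 with no floor, 1 with the floor halved, 1 with only the groups compared, 5 with both wild type 1 and Hopx-null 1 removed, and 1 to 3 with arrays left out. For the interaction it was 0 to 1 with arrays left out. The cause of these shifts was not tested.

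With arrays left out, the members' median log2 fold change ran between -0.0763 and -0.0119 in Hdac2-null against wild type (-0.05 over all arrays, and -0.0119 with both wild type 1 and Hopx-null 1 removed), between -0.0528 and 0.0127 in Hopx-null against wild type (0.0063), and between -0.153 and -0.0716 in double-null against wild type (-0.10). It ran between -0.0895 and -0.0327 against Hdac2-null (-0.07) and between -0.117 and -0.0379 against Hopx-null (-0.08). Over all alternatives, a count added after seeing the data, 23 to 28 members were lower in double-null against wild type. With the replicate number as a block over all groups (replicate block), members called were 0 in every comparison and genes called in double-null against Hopx-null were 1. The block fit changed no other count.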
